A study of Mus musculus with 40 samples.

Results

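Between day 4 and day 5, transcripts of nearly all listed epithelial genes and of many epiblast genes fell in mouse embryonic stem cell aggregates that had been given XAV939. Most listed genes of the primitive streak, the caudal epiblast and the first Hox groups rose. The step was read from 8 of the 40 libraries of the series, 4 at day 4 and 4 at day 5, all 4 of each day being the libraries that the titles assign to that day and to XAV939. XAV939 inhibits the tankyrases, which stabilises Axin and lowers signalling from Wnt through beta-catenin. It was present from 0 to 72 h, so the libraries of day 4 and day 5 were taken 24 h and 48 h after the treatment had ended. All aggregates were made from CGR8 cells, a line of strain 129, in N2B27, a medium without serum, to which Activin-A, Fgf2 and KSR (given in the labels by these letters only) were added. The untreated aggregates of the same days, used here only for comparison, are labelled as grown without matrigel, and the labels of the XAV939 aggregates do not mention matrigel. The study set out to test what XAV939 does to aggregates that resemble the epiblast. The labels do not say that libraries of 1 group came from separate cultures. The p-values rest on the spread within groups, estimated over all 40 libraries of the series, and this spread may be technical.

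In the embryo, the epiblast is an epithelial sheet of pluripotent cells. At gastrulation Wnt, Nodal and FGF signals at its posterior end induce the primitive streak, whose cells lose E-cadherin, leave the sheet and become mesoderm and endoderm. Cells that stay at the posterior edge form the caudal epiblast, which feeds both the spinal cord and the trunk mesoderm and in which Hox genes switch on in the order of their places in each cluster. Cells farther forward become neural plate, in which Gbx2, a factor of the anterior hindbrain, opposes Otx2, a factor of the more anterior brain.

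The 8 libraries held between 31159603 and 36229585 counts, and between 19038 and 19706 genes had at least 1 count. The share of mitochondrially encoded transcripts ran from 1.28% to 3.44% at day 4 and from 1.04% to 3.61% at day 5, with library 1 the lowest on both days. The first principal component held 63.7% of the variance of the 8 libraries and separated the days. On it library 4 stood nearest to day 5 among the day 4 libraries and farthest along among the day 5 libraries. The libraries labelled XAV939 at day 4 expressed epiblast genes at high level, with Pou5f1 between 412 and 912 CPM (CPM is the count of a gene relative to the total count of its library, scaled by TMM). Below, 4 values in a row are CPM in libraries 1, 2, 3 and 4, and a value in brackets or after "rose by" or "fell by" is a log2 fold change from day 4 to day 5 with, where given, its standard error (SE). The RNA came from whole aggregates, so fewer cells of a type and less RNA per cell cannot be told apart.

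Of 16878 genes tested, 2679 were higher and 2561 lower at day 5. A gene is called here when its p from edgeR's quasi-likelihood test, adjusted by the Benjamini-Hochberg method over all genes tested, was below 0.05. The calls are 15.9% of the genes tested for rises and 15.2% for falls, 31.0% in all. These shares are the background for every list below, as is the median log2 fold change over all genes tested, 0.01. The lists and their members were chosen with earlier results of these data known. A list's count beside the background is therefore a description and not a test. At unadjusted p below 0.05 there were 6898 genes. Of the called genes, 1269 (7.52% of the genes tested) rose and 1488 (8.82%) fell by at least 2-fold, and 104 rose and 33 fell by at least 16-fold. The groups did not overlap at all in 4510 genes, 26.7% of those tested. The direction was the same within all 4 pairs of libraries that share a number for 96.0% of called genes and for 39.6% of the others. Among 15232 protein-coding genes rises and falls were nearly equal in number, 2377 and 2396. Among 514 genes annotated as antisense 96 rose and 34 fell. The strand setting of the counting is not given in the sources used here, so reads of an antisense gene and of its partner may have been mixed. Among the genes named below, Crb3, Ccnd3 and Snrpn share exonic sequence with another gene of comparable level and are uncertain to that extent.

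**Figure D1:**
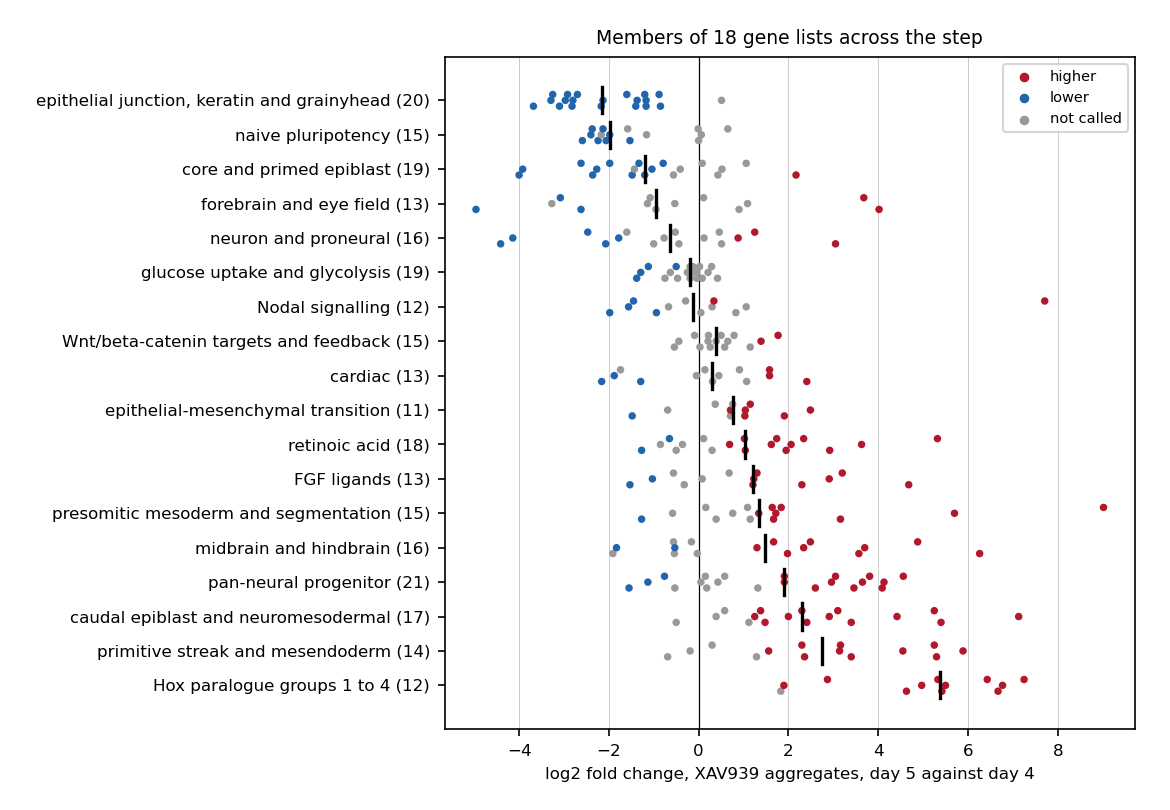
Each point is 1 tested gene of the named list, with the number tested in brackets, at its log2 fold change from day 4 to day 5 in XAV939 aggregates. Red points were called higher, blue points lower and grey points were not called, and the black bar is the list's median. The epithelial list lies to the left of 0 except for Grhl3, and all 12 members of Hox groups 1 to 4 lie to the right.

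The epithelial list fell almost as a whole: 19 of its 20 members were lower at day 5 against a background of 15.2%, with a median log2 fold change of -2.15 against 0.01 over all genes. Cdh1, which encodes E-cadherin, the adhesion molecule of epithelial junctions, stood at 633, 787, 876 and 466 at day 4 and at 207, 133, 217 and 72.3 at day 5. Library 4 was lowest on both days, and the lowest day 4 library was above the highest day 5 library. Cdh1 was 4.39-fold lower (log2 fold change -2.13, SE 0.27, adjusted p = 4.33e-07). Grhl2, a grainyhead factor that maintains epithelial gene expression, went from 42.2, 68.3, 62.2 and 38.1 to 13.3, 10.9, 14.6 and 8.13, again without overlap (-2.17, SE 0.24, adjusted p = 3.61e-08). Ap1m2, a clathrin adaptor subunit for basolateral sorting, fell from 37.9 ± 12.4 to 4.40 ± 2.58 CPM (SD, n = 4 and 4), a log2 fold change of -3.10. Rab25, a small GTPase of recycling endosomes in epithelia, fell from 33.1 ± 9.97 to 4.67 ± 2.05 CPM. The tight junction genes fell with them. Cldn4 went from 13.9, 31.1, 29.5 and 9.45 to 2.97, 2.07, 2.26 and 1.25, with libraries 2 and 3 highest at day 4 only. Its log2 fold change was -3.29 (SE 0.39, adjusted p = 1.47e-07). Cldn6 and Cldn7 changed by -2.80 and -2.70, and Crb3, a polarity protein of the apical membrane, by -3.68, the largest fall of the list. The smaller falls included Epcam at -1.6 and Esrp1, a splicing factor of epithelial isoforms, at -1.40. Grhl3, another grainyhead factor, was the member that was not called, with 1.94 ± 0.99 CPM at day 4 and 2.76 ± 0.45 at day 5 (0.51, adjusted p = 0.423).

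The promoters of this list share a short sequence. Factors of the Snail and Zeb families, which repress epithelial genes, recognise the E-box CAGGTG. The windows below are 60 bases on the gene's own strand, ending before an annotated start of transcription, from RefSeq on GRCm38.p6. They are shown because 7 of the genes fell and carry the E-box there, and because Grhl3 carries it and was not called. Capitals mark CAGGTG or its reverse complement CACCTG.
Epcam: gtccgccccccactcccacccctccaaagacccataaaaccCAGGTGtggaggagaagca
Cldn4: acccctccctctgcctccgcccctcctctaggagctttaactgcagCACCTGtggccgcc
Cldn6: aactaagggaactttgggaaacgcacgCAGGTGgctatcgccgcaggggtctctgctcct
Cldn7: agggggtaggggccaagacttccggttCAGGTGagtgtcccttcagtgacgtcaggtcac
Ap1m2: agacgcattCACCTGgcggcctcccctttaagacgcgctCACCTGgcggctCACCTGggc
Rab25: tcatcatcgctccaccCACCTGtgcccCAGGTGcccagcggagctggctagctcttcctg
Crb3: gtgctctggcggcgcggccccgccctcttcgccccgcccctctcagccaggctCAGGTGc
Grhl3: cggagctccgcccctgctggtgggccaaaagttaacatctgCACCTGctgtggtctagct
The windows lie at chr17:87635919-87635978 (Epcam), chr5:134946935-134946994 (Cldn4, minus strand), chr17:23679245-23679304 (Cldn6), chr11:69965337-69965396 (Cldn7), chr9:21312334-21312393 (Ap1m2, minus strand), chr3:88548300-88548359 (Rab25, minus strand), chr17:57062141-57062200 (Crb3) and chr4:135573633-135573692 (Grhl3, minus strand). Cldn7 has another annotated start farther upstream.

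The E-box was searched on both strands in 300 bases around each start, 250 before it and 50 after it, in the RefSeq promoters. A promoter was matched for 14 of the 20 epithelial genes, and 13 of these (92.9%) held the E-box. It was present in 20.2% of all 32851 promoters and in 22.2% of the 12747 tested genes with a promoter. Among genes called lower 598 of 1971 (30.3%) held it, among genes called higher 388 of 1982 (19.6%), and among genes not called 21%. Lists that mostly rose lay on both sides of the background. The share was 45.5% (5 of 11) in the caudal epiblast list and 36.4% (4 of 11) in the streak list. It was 6.67% (1 of 15) in the pan-neural list and 0 of 8 in Hox groups 1 to 4. The endoderm list, which moved both ways, held it in 63.6% (7 of 11). Ap1m2 and Crb3 held 4 copies each. Grhl3, which was not called, held it as well, so the letters did not separate the genes that fell from the one that was not called. A match is a description of the letters in this window and not evidence that a factor was bound.

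**Figure D2:**
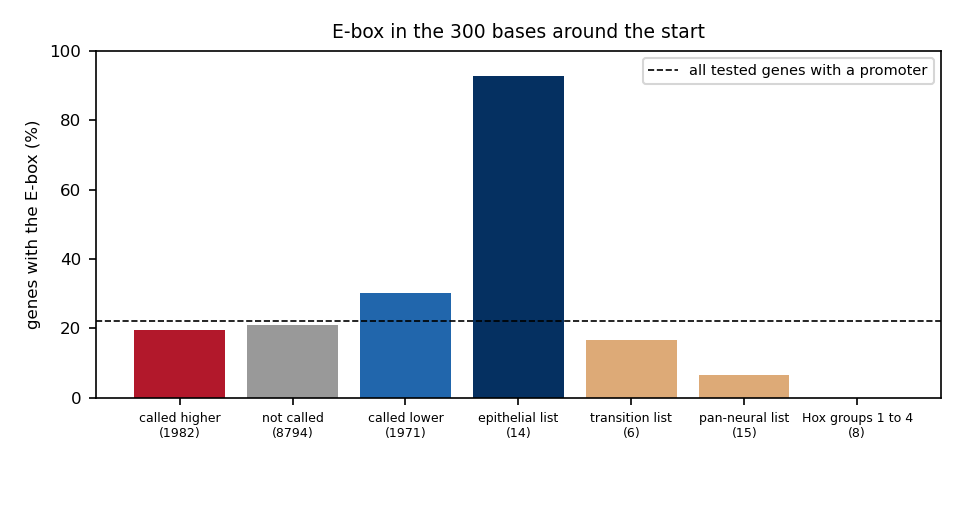
Bars give the percentage of genes whose 300 bases around the start hold the E-box CAGGTG on either strand, with the number of genes matched to a RefSeq promoter in brackets. The dashed line is the share among all tested genes with a promoter, 22.2%. The epithelial list stands at 92.9%, genes called lower at 30.3% and genes called higher at 19.6%. The caudal epiblast and streak lists, which mostly rose and are not drawn, had 45.5% and 36.4%.

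In the list of epithelial-mesenchymal transition genes 6 of 11 rose and 1 fell, with a median of 0.76. The count of falls was 0 without day 4 library 1 or 4 or day 5 library 1, 2 or 4. Cdh2, which encodes N-cadherin of neural and mesodermal cells, went from 80.4, 40.7, 36.9 and 73.2 to 227, 263, 165 and 215 (1.91, SE 0.26, adjusted p = 1.04e-06). Zeb1, a repressor of Cdh1, went from 6.89, 3.72, 2.16 and 11.5 to 27.5, 38.7, 27.8 and 42.0 (2.49, SE 0.39, adjusted p = 9.63e-06). In both genes libraries 1 and 4 were the highest at day 4, and no day 4 library reached a day 5 library. Fn1, fibronectin, rose by 1.04 and Twist1, a mesenchymal factor of low level here, rose by 1.15. With both libraries numbered 1 left out, Fn1 was at 0.88 with an adjusted p of 0.0504. Snai1, the repressor best known from the primitive streak, did not pass the test and had 3.35 ± 0.77 CPM at day 4 and 2.07 ± 1.04 at day 5 (-0.69, adjusted p = 0.345). With the library number as a block in the 8 libraries it passed at the threshold (-0.82, adjusted p = 0.05). Zeb2 had 58.9 ± 22.7 and 76.3 ± 8.36 CPM (0.37, adjusted p = 0.324).

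In the list of core and primed epiblast genes 11 of 19 fell and 1 rose, with a median of -1.20. With day 4 library 2 left out 7 fell, and with the library number as a block 2 rose. Dnmt3b, the de novo DNA methyltransferase of the epiblast, stood at 1920, 2170, 2910 and 1230 at day 4 and at 535, 323, 503 and 238 at day 5. The difference of 5.14-fold (-2.36, SE 0.26, adjusted p = 2.75e-08) was 1 of the 6 largest losses in CPM of the step. Dnmt3a, its relative, fell by 1.20 on the log2 scale. Otx2, a factor of the epiblast and later of the anterior brain, went from 180, 149, 168 and 112 to 24.9, 20.1, 29.4 and 24.8 (-2.62, SE 0.40, adjusted p = 8.09e-06). The 4 libraries of day 5 were close to each other. Utf1, a chromatin factor of pluripotent cells, fell by 4.0 on the log2 scale and Foxd3 by 3.92. Foxd3 was at -4.65 without day 5 library 1, and without both libraries numbered 1 Utf1 was at -4.73.

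Pou5f1, which encodes Oct4, went from 502, 815, 912 and 412 to 356, 182, 346 and 98.0, so that every day 4 library exceeded every day 5 library. It did not pass the test over all libraries (-1.43, SE 0.59, adjusted p = 0.0641), and did so with the library number as a block in the 8 libraries (-1.54, adjusted p = 0.00338), in DESeq2 (adjusted p = 0.0473) and without day 4 library 4 (adjusted p = 0.0476). Nanog went from 164, 211, 148 and 211 to 113, 51.4, 142 and 52.4 (-1.04, SE 0.39, adjusted p = 0.0415). Its call rested on single libraries: the adjusted p was 0.142 without day 5 library 2, 0.146 without day 5 library 4, and 0.0504, 0.0972 and 0.0741 without day 4 libraries 1, 2 and 4. Sox2, shared by pluripotent and neural cells, had 35.4 ± 3.09 and 47.6 ± 19.3 CPM and was not called (0.43, adjusted p = 0.321). Fgf5, a marker of the formative epiblast, had 80.5 ± 15.7 and 54.6 ± 21.3 CPM (-0.56, adjusted p = 0.203). The 1 member of the epiblast list that rose was Epha2, an ephrin receptor, from 14.8, 26.8, 19.9 and 17.8 to 114, 85.7, 87.9 and 70.2 (2.17, adjusted p = 5.98e-05).

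The naive pluripotency list had summed levels between 62.9 and 194 CPM at day 4 and between 30.3 and 56.8 CPM at day 5. Of its 15 members 8 fell and none rose, with a median of -1.98. The count was 5 without day 5 library 4 and 3 without day 4 library 2, and with the library number as a block 1 rose. Dppa4, a chromatin protein of pluripotent cells, fell by 2.59 on the log2 scale and Klf2 by 2.13. In the list of Lin28 and let-7 targets 2 of 14 rose and 3 fell. With the library number as a block 5 rose, and 1 fell without day 4 library 2 or day 5 library 3 or 4. Hmga2, a let-7 target encoding a chromatin protein, rose from 70.1, 41.8, 39.0 and 88.5 to 281, 353, 206 and 377 (2.34, adjusted p = 7.29e-08). Tet1, which oxidises methylated cytosine, fell by 0.89.

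**Figure D3:**
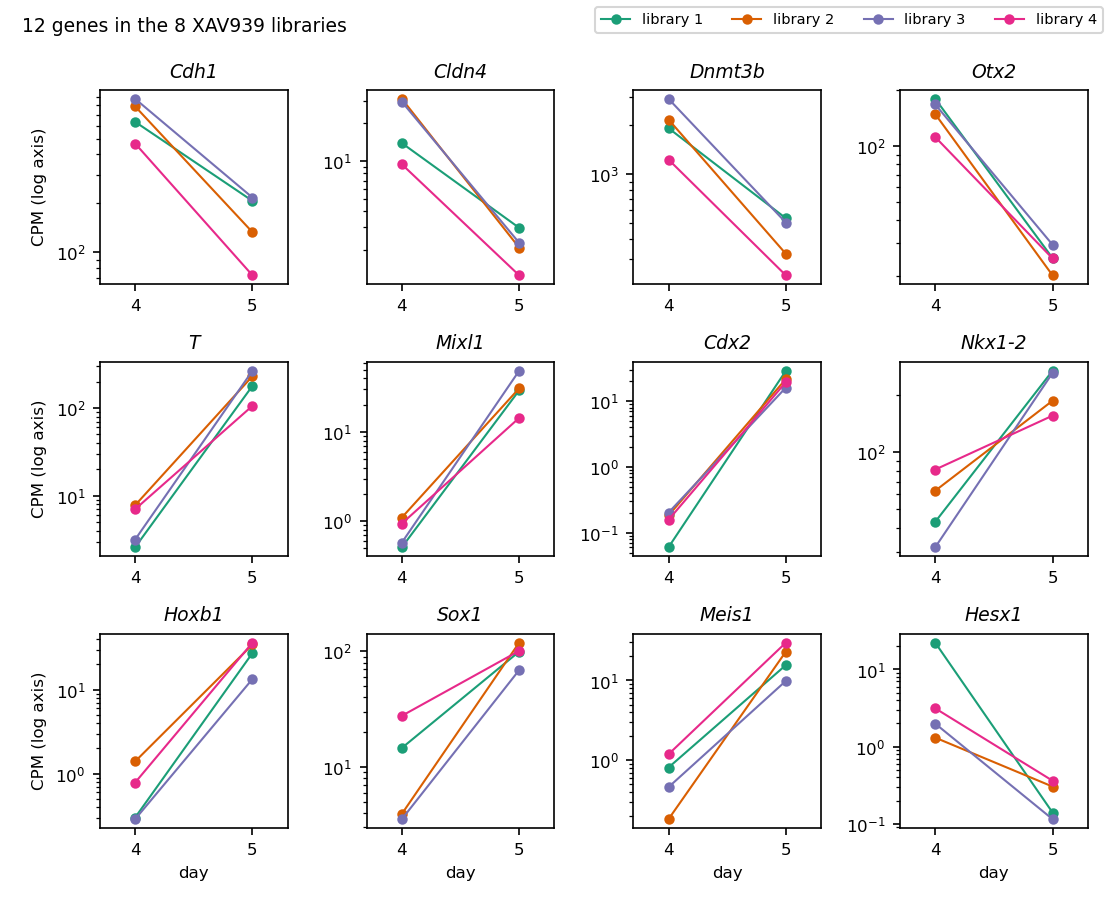
CPM on a log axis in the 8 XAV939 libraries for 12 genes, with lines joining the libraries that share a number. Cdh1, Cldn4, Dnmt3b and Otx2 fall in every pair, T, Mixl1, Cdx2, Nkx1-2, Hoxb1, Sox1 and Meis1 rise in every pair, and Hesx1 falls from a day 4 group in which library 1 stands apart at 22.3 CPM.

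Most listed genes of the primitive streak rose, some of them from near absence. The summed level of the list was between 73.4 and 134 CPM at day 4 and between 193 and 528 CPM at day 5. Of 14 members of the streak and mesendoderm list 10 rose against a background of 15.9%, none fell (1 with the library number as a block), and the median was 2.75. T, which encodes Brachyury, the T-box factor of the streak and the notochord, stood at 2.59, 7.8, 3.17 and 7.03 at day 4 and at 179, 231, 266 and 106 at day 5. The lowest day 5 value belonged to library 4, and the groups were far apart. The rise was 38-fold (5.25, SE 0.85, adjusted p = 1.50e-05). Mixl1, a homeobox factor of mesendoderm, rose 39.3-fold, from 0.511, 1.10, 0.576 and 0.942 to 29.3, 30.9, 48.6 and 14.4 (5.3, SE 0.98, adjusted p = 9.57e-05). Lhx1, a homeobox factor of streak derivatives that migrate forward, went from 0.451 ± 0.222 to 27.0 ± 12.6 CPM (5.89, adjusted p = 8.36e-05). Foxa2, the factor of endoderm and node, rose by 3.14. Eomes, the T-box factor that acts upstream of mesendoderm, was an exception. It was present at day 4 already, at 45.0, 82.6, 49.6 and 64.1, and stood at 68.3, 39.8, 87.9 and 14.9 at day 5 (-0.19, adjusted p = 0.791). Its sign turned to 0.12 without day 5 library 4.

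In the definitive endoderm and gut list 8 of 18 rose and 4 fell, and the falls included the epithelial gene Epcam. Cer1, a secreted inhibitor of Nodal, Wnt and BMP made by anterior endoderm, went from 0.0601, 0, 0.0864 and 0 to 6.68, 15.4, 7.44 and 4.94 (7.71, SE 1.54, adjusted p = 0.000232, and 8.49 without day 4 library 3). Sox17, an endoderm and endothelial factor, rose from 0.0766 ± 0.0545 to 1.75 ± 0.83 CPM (4.47, and 5.08 without both libraries numbered 4). Noto, a homeobox factor of the node, rose from 0.00762 ± 0.0152 to 1.01 ± 0.56 CPM. A single day 4 library, library 2, held any Noto count, and the log2 fold change of 6.53 was 8.19 without it. Cxcr4, a chemokine receptor of endoderm and other cells, was high at day 4 in libraries 1 and 4 (7.46 and 11.2) and rose to between 21.4 and 34.3 (2.43, and 3.06 without day 4 library 4).

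The caudal epiblast list rose with the streak: 13 of 17 members were higher, none was lower, and the median was 2.30. Cdx2, a caudal homeobox factor, went from 0.0601, 0.183, 0.202 and 0.157 to 29.0, 21.7, 16.1 and 19.5, a rise of 7.13 on the log2 scale (SE 0.99, adjusted p = 2.58e-06). Cdx1 rose by 5.4 (6.11 without day 4 library 2) and Cdx4 by 4.42, the latter to 1.20 ± 0.36 CPM only. Nkx1-2, a homeobox gene of the preneural caudal epiblast, was already present at day 4, at 43.0, 62.7, 31.6 and 81.1, and rose to 269, 187, 262 and 156 (2.0, SE 0.56, adjusted p = 0.00631). Library 4, highest at day 4, was lowest at day 5. Fgf8, the FGF of the caudal gradient, went from 3.61, 5.43, 2.71 and 3.49 to 27.8, 18.3, 18.9 and 9.91 (2.30, adjusted p = 0.00289). Wnt3a, which keeps caudal progenitors, rose from 1.65, 0.274, 0.202 and 1.16 to 9.35, 6.93, 7.82 and 4.21 (3.10, SE 1.02, adjusted p = 0.0192). Its groups did not overlap, but the adjusted p was 0.0668 without day 4 library 2 and 0.0693 without day 4 library 3, and the log2 fold change was 3.7 without day 4 library 1.

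Of 15 presomitic mesoderm and segmentation genes 8 rose and 1 fell, with a median of 1.34. Msgn1, a bHLH factor of the presomitic mesoderm, had no count in any day 4 library and 1.52, 3.20, 1.46 and 1.05 CPM at day 5. Against a floor of 3 counts over the 4 day 4 libraries, 0.0226 CPM, it was at least 79.9-fold higher (adjusted p = 0.00283). Tbx6, the T-box factor of paraxial mesoderm, rose from 0.391, 0.457, 0.720 and 0.471 to 3.85, 6.85, 4.72 and 2.90 (3.16, SE 0.84, adjusted p = 0.00405). Library 2 was highest for both at day 5. Rspo3, an amplifier of Wnt signalling, reached 20.6 ± 5.8 CPM (1.72), Nrarp, a Notch feedback gene, 24.6 ± 4.36 CPM (1.84), and Epha4 177 ± 38.6 CPM (1.64).

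Of 13 somite genes 4 rose and 1 fell. The count of rises was 7 in DESeq2 and 2 without day 5 library 2, and without day 4 library 1 or day 5 library 1 none fell. The summed level of the list was between 11.5 and 27.8 CPM at day 5. Pax3, which is shared with the dorsal neural tube, rose (from 3.94, 0.549, 0.432 and 2.39 to 14.3, 16.7, 8.22 and 15.2, 2.90 and 3.61 without day 4 library 1). Aldh1a2, the retinaldehyde dehydrogenase of somites, went from 0.451, 0.152, 0.115 and 0.377 to 1.6, 4.09, 0.429 and 2.17. Library 3 at day 5 lay within the day 4 range (2.92, SE 0.91, adjusted p = 0.0132), and without day 5 library 2 the adjusted p was 0.0743 at 2.33. Foxc1 rose to 1.55 ± 1.03 CPM (2.46, and 1.87 without day 5 library 2). Of 13 cardiac genes 3 rose and 3 fell. The falls included contractile genes that had been detected at day 4: Actc1 from 25.5 ± 6.11 to 6.95 ± 2.35 CPM (-1.88) and Myh6 from 4.48 ± 0.93 to 0.997 ± 0.478 CPM (-2.16). In the endothelial and blood list 2 of 13 rose and 4 fell. The count of rises was 0 without day 4 library 3 and 1 without day 4 library 1 or 4 or day 5 library 1, 2 or 3. In the lateral and intermediate mesoderm list 3 of 13 moved each way.

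The 3' Hox genes switched on. Of 12 tested members of paralogue groups 1 to 4, 11 rose, with a median of 5.38, or 4.59 with the 3 members that had no count in any library of 1 day held at the floor. With the library number as a block in the 8 libraries 7 members could be tested, and all 7 rose. Hoxb1, the earliest gene of its cluster, went from 0.301, 1.40, 0.288 and 0.785 to 27.3, 34.5, 13.4 and 36.3 (5.33, SE 0.61, adjusted p = 6.79e-08). Library 2 was highest at day 4, and the groups did not overlap. Hoxb2 reached 11.4 ± 6.4 CPM (6.43) and Hoxa2 11.7 ± 7.82 CPM (4.97), in both with libraries 2 and 4 highest and library 3 lowest. Hoxa3 reached 2.43 ± 1.02 CPM (5.42). Without day 4 library 2 the log2 fold changes were 5.93 for Hoxb1, 7.08 for Hoxb2 and 6.17 for Hoxa3. Hoxb4 had no count at day 4 and 0.357 ± 0.223 CPM at day 5, at least 15.8-fold higher. Hoxb2 shares exonic sequence with Hoxb3os on the opposite strand, and Hoxa3 with an antisense gene, so their counts are uncertain to that extent.

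In Hox groups 5 to 8 the summed level stayed between 0.573 and 4.36 CPM at day 5. Of 11 members 3 rose, 6 in DESeq2, and with the library number as a block 1 could be tested and rose. The median of 3.22 was 1.68 with 5 members held at the floor. Hoxb8 went from 0, 0, 0.0288 and 0 to 1.40, 2.35, 0.344 and 1.45 (6.98, and 8.64 without day 4 library 3). Hoxa5 reached 0.598 ± 0.366 CPM (3.22). Hoxb9, of the more 5' groups, went from 0.301, 0.183, 0.0576 and 0.22 to 4.91, 4.78, 0.687 and 4.74 (4.30, SE 0.82, adjusted p = 0.000134), and library 3 of day 5 stood apart below the others. The single Hox gene that fell was Hoxd13, from 0.770 ± 0.078 to 0.279 ± 0.036 CPM (-1.46, adjusted p = 0.00269).

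Neural progenitor genes rose at the same time. Of 21 pan-neural genes 11 rose and 3 fell, with a median of 1.91. Sox1, the SoxB factor specific to neural plate, went from 14.6, 3.93, 3.54 and 27.7 to 99.6, 119, 68.9 and 101 (2.96, SE 0.48, adjusted p = 1.61e-05). At day 4 library 4 was high, and the log2 fold change was 3.72 when it was left out. Fabp7, a fatty acid binding protein of radial progenitors, rose from 5.86, 4.79, 5.88 and 7.79 to 87.6, 139, 66.3 and 135 (4.13, SE 0.39, adjusted p = 2.15e-09). Pou3f2, a POU factor of neural progenitors, rose by 4.56 and Nr2f2, an orphan nuclear receptor, by 4.09. Both were lowest in library 3 at day 5. Sox21 rose from 13.3, 1.25, 0.951 and 12.8 to 48.1, 76.2, 34.1 and 76.2 (3.05, and 3.64 without both libraries numbered 1). Zic1 rose by 3.81, while Zic5 fell by 1.13 and Pou3f1, a POU factor expressed from the epiblast on, fell by 1.55. Pax6 was not called, at 1.23, 1.62, 1.61 and 1.48 and then 1.80, 5.39, 1.0 and 6.78 (1.32, adjusted p = 0.0577). Libraries 2 and 4 alone were high. Without day 5 library 1 or 3 it passed, with an adjusted p of 0.0302 or 0.0190.

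In the midbrain and hindbrain list 9 of 16 rose and 2 fell, with a median of 1.48. The count of falls was 1 with the library number as a block and without day 4 library 1 or 4 or day 5 library 2, 3 or 4. Meis1, a Hox cofactor, went from 0.812, 0.183, 0.461 and 1.19 to 15.6, 23.0, 9.88 and 29.8 (4.88, SE 0.39, adjusted p = 1.73e-10). Egr2, also known as Krox20, which marks alternating hindbrain segments, rose from 0.271, 0.183, 0.115 and 0.188 to 15.4, 21.5, 7.93 and 14.4 (6.26, SE 0.65, adjusted p = 1.15e-08). Gbx2, the factor of the anterior hindbrain that opposes Otx2, rose from 8.87, 14.6, 4.32 and 28.6 to 62.5, 44.5, 77.8 and 37.5 (1.98, and 2.58 without day 4 library 4). By library number, the order of the Gbx2 levels at day 5 was the reverse of that at day 4. The libraries of the 2 days are different ones, the labels do not say what a number shares, and this order was not tested. Pax5 and En2, markers of the boundary region, rose by 3.57 and 3.7, and Irx2 by 2.49. In the forebrain and eye field list 3 of 13 fell and 2 rose (1 with the block), with a median of -0.95, or -0.53 with 1 member held at the floor. Otx2 was among the falls. Hesx1, a repressor of the anterior neural plate, went from 22.3, 1.31, 1.99 and 3.14 to 0.140, 0.304, 0.115 and 0.362. Every day 4 library was higher than every day 5 library, and library 1 was far above the rest. The log2 fold change was -4.96 (SE 0.81, adjusted p = 1.65e-05), -4.25 with the library number as a block and -3.22 without day 4 library 1.

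Of 16 genes of the dorsoventral domains of the neural tube 6 rose and 1 fell (2 in DESeq2 and without day 4 library 2 or 3). Olig3, a bHLH factor of dorsal progenitors, went from 0.150, 0.183, 0.0288 and 0.408 to 28.4, 27.0, 19.7 and 32.7 (7.12, SE 0.69, adjusted p = 6.88e-09, and 7.78 without day 4 library 4). Msx3, a homeobox gene of the dorsal tube, rose from 0.631, 0.122, 0.173 and 3.23 to 10.3, 14.3, 10.5 and 12.5 (3.52, and 5.25 without day 4 library 4), and Pax7 from 4.33, 0.305, 0.288 and 2.79 to 16.1, 15.4, 7.79 and 16.9 (2.86, and 3.64 without day 4 library 1). For Sox1, Sox21, Pax3, Msx3 and Pax7 libraries 1 and 4 were above libraries 2 and 3 at day 4. In the list of neuronal and proneural genes 3 of 16 rose and 5 fell, with a median of -0.64. The count of rises was 1 without day 4 library 1, day 4 library 2 or day 5 library 4. Only falls of this list are named here, and 6 of the 16 members had a positive log2 fold change. Elavl3, an RNA-binding protein of new neurons, fell from 10.7, 14.8, 20.6 and 9.77 to 2.02, 2.87, 2.29 and 2.90 (-2.47, adjusted p = 0.000343), Tubb3, the neuronal tubulin, by 1.78 and Neurog1 from 1.0 ± 0.33 to 0.0444 ± 0.0191 CPM (-4.41).

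Of 13 FGF ligands 7 rose and 2 fell (1 without day 4 library 2 or day 5 library 4), with a median of 1.21. Fgf10 went from 0.331, 0.396, 0.288 and 1.04 to 13.2, 14.1, 13.4 and 11.8 (4.68, and 5.26 without day 4 library 4), and Fgf3 from 1.67 ± 1.02 to 15.4 ± 2.54 CPM (3.20). Of 16 genes of ERK feedback and FGF response 6 rose and 1 fell (0 without day 4 library 1 or day 5 library 4). Spry2, an inhibitor of FGF receptor signalling, rose from 26.0, 37.5, 31.7 and 37.1 to 127, 122, 112 and 76.0 (1.73, adjusted p = 8.68e-06). Il17rd and Spred1, feedback inhibitors of the same pathway, rose to 419 ± 28.6 and 277 ± 8.43 CPM (1.69 and 1.13), and Phlda1 by 2.74.

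Of 15 Wnt targets and feedback genes 2 rose and none fell. With the library number as a block in the 8 libraries 6 rose and 1 fell. Without day 4 library 1 4 rose, 1 rose without day 4 library 2 or 3 or day 5 library 1 or 3, and 1 fell without day 4 library 4 or day 5 library 1. Axin2, the negative feedback gene most used as a readout of beta-catenin, stood at 80.4, 46.9, 34.7 and 48.8 at day 4 and at 102, 64.7, 74.6 and 57.0 at day 5. The groups overlapped, library 1 was highest on both days, and every pair moved up (0.50, SE 0.30, adjusted p = 0.212, and 0.0223 with the library number as a block in the 8 libraries). Lgr5, a receptor for R-spondins, rose by 1.77. Of 19 Wnt ligands 5 rose and 2 fell, and in the 8 libraries alone without a block 8 of 16 rose and none fell. The counts changed with single libraries: 3 rose without day 4 library 2 or 3, and 1 fell without day 4 library 1 or 2 or day 5 library 1. Wnt5a went from 6.15 ± 1.35 to 14.7 ± 1.36 CPM (1.25), and Wnt5b and Wnt7a rose by 1.38 and 2.61. Wnt8a, a ligand of the streak, had 28.7, 78.3, 46.4 and 64.6 and then 129, 84.9, 141 and 120 CPM. It was not called (1.12, adjusted p = 0.178), although the groups did not overlap, and passed in the 8 libraries alone without a block (adjusted p = 0.0169) and with the library number as a block (adjusted p = 0.0168). Of 13 Wnt antagonists, secreted apart from Shisa2, 3 rose and 1 fell, which was Shisa2. In this list 6 rose without day 4 library 1 and 5 with the block over all 40 libraries. The count of falls was 2 with the block or without day 5 library 3. Frzb rose by 1.36. Shisa2, which retains Wnt and FGF receptors in the endoplasmic reticulum, went from 79.9, 12.7, 19.9 and 13.4 to 4.21, 6.43, 4.72 and 4.87 (-2.64, SE 0.42, adjusted p = 1.45e-05, and -1.6 without day 4 library 1).

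Nodal signalling gave 2 rises and 4 falls among 12 genes. The number of falls was 1 without day 4 library 2 or day 5 library 4 and 2 without day 4 library 3 or day 5 library 3. The number of rises was 1 without day 4 library 1 or 3 or day 5 library 2 or 4, and 4 genes rose with the library number as a block. Nodal itself went from 25.0, 79.6, 51.5 and 31.4 to 22.3, 16.6, 19.4 and 5.33, with libraries 2 and 3 highest at day 4 (-1.56, SE 0.42, adjusted p = 0.00430). In the BMP list 7 of 18 rose and 1 fell (2 in DESeq2, with the block over all 40 libraries and without day 4 library 1 or 4). Id2 and Id4, targets of BMP, rose by 1.79 and 1.94, while Bmp4 fell from 3.26 ± 1.03 to 1.16 ± 0.42 CPM (-1.48). Of 19 Notch genes 5 rose and 3 fell. Without day 4 library 3 none fell, without day 5 library 4 1 fell, and with the library number as a block 5 fell. Jag1, a Notch ligand, rose from 29.9, 15.3, 16.1 and 25.0 to 93.7, 95.8, 68.6 and 98.0 (2.04, adjusted p = 2.29e-07), and Dll1, the ligand of presomitic mesoderm and neural progenitors, by 1.67. In the Hedgehog list 7 of 15 rose, among them the co-receptors Boc (2.06) and Cdon (1.43), and 1 fell. No member fell without day 4 library 2 or 3 or day 5 library 3 or 4, and 2 fell without day 5 library 1 or with the block.

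The retinoic acid list held 11 rises and 2 falls among 18 genes, with a median of 1.03. The count of falls was 1 without day 4 library 2 or 3 or day 5 library 2 or 4. Crabp1, a carrier of retinoic acid in the cytoplasm, had the largest of them, from 5.32, 2.10, 2.77 and 11.8 to 131, 306, 53.7 and 384 (5.32, SE 0.48, adjusted p = 1.19e-09, and 6.01 without day 4 library 4). Cyp26b1, which degrades retinoic acid, rose from 0.301, 0.366, 0.432 and 0.251 to 2.05, 8.67, 0.716 and 5.46 (3.63, and 2.99 without day 5 library 2). In both genes libraries 2 and 4 were high and library 3 low at day 5, as for Hoxa2 and Hoxb2. Rdh10, which oxidises retinol, rose by 1.04, and the receptor gene Rarg fell by 1.27. Cyp26a1, the other degrading enzyme, stood at 25.6, 6.62, 7.09 and 7.94 at day 4 and at 6.15, 12.2, 8.93 and 6.12 at day 5. It was not called (-0.50, adjusted p = 0.428), and the sign turned to 0.21 without day 4 library 1.

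Of 27 axon guidance genes 14 rose and 3 fell, with a median of 0.95. Slit2 rose from 4.76 ± 0.97 to 22.1 ± 5.90 CPM (2.21), Sema3a by 3.77 and its receptor Nrp1 by 3.54. Of 17 cadherins and protocadherins 7 rose and 4 fell, and the falls included Cdh1, described above. Cdh6 rose from 13.5, 2.71, 2.62 and 7.85 to 35.6, 23.7, 26.6 and 29.2 (2.11, and 2.71 without day 4 library 1). Of 29 collagen, laminin and integrin genes 10 rose and 7 fell, with a median of 0.13. Their summed level was between 1560 and 2260 CPM at day 4 and between 1590 and 2600 CPM at day 5. The members named next all rose. The neighbouring X-linked genes Col4a5 and Col4a6, chains of basement membrane collagen, rose by 2.12 and 2.42, Col11a1 by 3.10 and Itga8 by 2.79.

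Cell cycle, metabolic and imprinted genes held some of the changes that were largest in CPM. Ccnd2, a D-type cyclin, rose from 89.6, 52.0, 32.6 and 90.4 to 558, 403, 493 and 420 (2.83, SE 0.45, adjusted p = 1.14e-05), and Ccnd3 and Mycl rose by 1.13 and 1.26. Of 20 cyclin, inhibitor and Myc genes 6 rose and 2 fell. With the library number as a block 5 fell, and 1 fell without day 4 library 2 or 3 or day 5 library 2, 3 or 4. In the glucose uptake and glycolysis list none of 19 rose and 4 fell, 7 with the block and 8 without day 5 library 1. With the block 2 rose, and 1 rose without day 5 library 3. Slc2a1, the glucose transporter, went from 916, 728, 938 and 657 to 468, 286, 322 and 248 (-1.29, adjusted p = 0.000232). Slc16a3, a lactate exporter, fell by 1.38. Of 15 genes of the integrated stress response none fell (1 without day 4 library 4) and 4 rose, among them the cystine transporter Slc7a11, from 20.2, 18.8, 13.1 and 7.13 to 92.3, 42.9, 143 and 42.1 (2.44), and Asns (0.85). Of 12 p53 targets 4 fell, 7 with the block and 2 without day 4 library 3. Phlda3 fell by 1.04.

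Of 20 imprinted genes 8 rose and 4 fell. Mest, which is expressed from the paternal allele, rose from 491, 223, 252 and 469 to 1230, 1610, 1010 and 1720 (1.96, adjusted p = 1.83e-07), which was 1 of the 6 largest gains in CPM. Plagl1, a zinc finger factor, rose by 2.94 and Sgce by 1.41, while Snrpn fell from 215, 250, 271 and 196 to 97.2, 79.2, 99.1 and 64.3 (-1.46, adjusted p = 5.11e-08). Peg3 rose by 0.85. Rian and Meg3, noncoding RNAs of 1 imprinted region of chromosome 12, fell from 1780 ± 295 to 1080 ± 223 CPM (-0.73) and from 1100 ± 309 to 559 ± 175 CPM (-0.97). The adjusted p of Meg3 was 0.0629 without day 5 library 1 and 0.0757 without day 4 library 3.

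The gains in CPM that remain were Scd2, a fatty acid desaturase (1870 ± 196 to 2720 ± 580 CPM, 0.54), Prtg, an immunoglobulin family receptor of early neural and mesodermal tissue (558 ± 137 to 961 ± 87.8, 0.78), and Ivns1abp (577 ± 186 to 911 ± 260, 0.66). The adjusted p of Ivns1abp was 0.0867 without day 5 library 4 and 0.0551 without day 4 library 3. The other losses were Fat1, a giant protocadherin (854 ± 220 to 305 ± 81.6, -1.49), Actb, cytoplasmic actin (1600 ± 233 to 1000 ± 269, -0.68), and Gm42418, a gene model that overlaps ribosomal RNA. Gm42418 stood at 13000, 461, 392 and 229 at day 4 and at 350, 271, 269 and 271 at day 5. Its call rested on day 4 library 1: without it the log2 fold change was -0.31 (adjusted p = 0.715), and with the library number as a block the adjusted p was 0.430.

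Among called genes without overlap and with a mean of at least 5 CPM on the higher day, the largest rises by fold change that have not been described were Hoxb3os, a noncoding gene in the Hoxb cluster (0.114 ± 0.0882 to 16.3 ± 13.4 CPM, 7.12), Samd3 (6.64), the receptor gene Pth2r (6.51) and Sparcl1, a secreted matrix protein (5.49). Hoxb3os was at 6.51 without day 5 library 4 and 7.79 without day 4 library 2. Pth2r was at 7.39 and Sparcl1 at 6.34 without day 4 library 4. The largest falls chosen in the same way that have not been described were Sez6, a membrane protein of neurons, from 91.5, 28.0, 44.9 and 23.1 to 1.99, 1.6, 1.57 and 1.38 (-4.83, SE 0.61, adjusted p = 3.85e-07), and then Gm36356 (-4.45, and -5.04 without day 5 library 3), Far2, a fatty acyl reductase (-4.29), Pla2r1, a phospholipase receptor (-4.01), Fbp1, an enzyme of gluconeogenesis (-3.76), Pak6, a kinase (-3.72), Pcsk2, a prohormone convertase (-3.60), and Gm12688 (-3.60). Far2 shares exonic sequence with Ergic2 on the opposite strand, which had 110 CPM, so its level is uncertain. Besides Msgn1, Gm32061 and Hpgds, a prostaglandin synthase, had no count at day 4 and at least 1 CPM at day 5. They were at least 68.7-fold and at least 61.7-fold higher, with means of 1.55 ± 1.18 and 1.39 ± 1.21 CPM. Library 4 held 3.09 CPM of Hpgds.

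The same day in untreated aggregates gave 1769 rises (10.5%) and 1379 falls (8.17%). These counts depended on single libraries. They were 2171 and 1726 without untreated day 4 library 1, and 1265 and 873 without untreated day 5 library 1. The arms share no library, but libraries of 1 number deviated together across them, with correlations of 0.292, 0.523, 0.367 and 0.419 at day 4 and of 0.343, 0.155, 0.22 and 0.377 at day 5, so the arms are not independent. A test of the difference between the steps called 0 genes in edgeR (0.0%), and 844 (5.0%) had an unadjusted p below 0.05. If no gene differed, about 5.0% would be below that limit. DESeq2 called 5 genes that moved up more and 29 that moved down more in XAV939 aggregates. Vgll3 and the other genes of the next paragraph are among these DESeq2 calls, and edgeR called none of them. The epithelial list had 19 falls of 20 and a median of -2.15 in XAV939 aggregates and 15 falls and -1.20 in untreated ones. Hox groups 5 to 8 had 3 rises of 11 in XAV939 aggregates (6 in DESeq2) and 10 in untreated ones. The naive list had 8 falls of 15 and a median of -1.98 in XAV939 aggregates and 0 falls and -0.36 in untreated ones. None of these list differences was tested, and the untreated list counts were not repeated without single libraries.

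Vgll3, a cofactor of TEAD factors, went from 2.32, 2.56, 3.29 and 1.88 to 32.1, 68.8, 15.3 and 37.5 in XAV939 aggregates (3.93, SE 0.50, adjusted p = 3.93e-07), and from 2.19, 3.14, 2.84 and 3.02 to 5.26, 2.87, 11 and 2.84 in untreated ones (0.97, adjusted p = 0.143). The difference of the steps was 2.96 (adjusted p = 0.141 in edgeR and 0.0100 in DESeq2). Cyp26a1 rose in untreated aggregates by 2.18, and the difference was -2.68 (adjusted p = 0.169 in edgeR, 0.0290 in DESeq2, 0.573 at -1.97 without XAV939 day 4 library 1, and 0.0338 without untreated day 5 library 4). Shisa2 differed by -2.34 (adjusted p = 0.169 in edgeR, 0.0217 in DESeq2, 0.797 at -1.30 without XAV939 day 4 library 1, and 0.0435 without untreated day 5 library 4). Cldn6 fell by 0.94 in untreated aggregates and differed by -1.85 (adjusted p = 0.232 in edgeR, 0.0486 in DESeq2, and 0.043 without untreated day 5 library 4). Aldh1a2 rose by 7.82 in untreated aggregates, where day 5 libraries spread from 4.82 to 216 CPM, and differed by -4.90 (adjusted p = 0.393 in edgeR and 0.0100 in DESeq2), or -3.13 without untreated day 5 library 1. Hesx1 differed by -4.07 (adjusted p = 0.232 in edgeR and 0.0371 in DESeq2). Without XAV939 day 4 library 1 its difference was -2.33 (adjusted p = 0.91 in edgeR).

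The differences of T and Mixl1 rested on 1 untreated library. T differed by 3.86 (adjusted p = 0.271) and Mixl1 by 4.62 (adjusted p = 0.232). In untreated aggregates T stood at 550, 24.6, 11.8 and 17.2 at day 4 and at 283, 490, 435 and 372 at day 5, and Mixl1 at 167, 4.17, 2.06 and 2.82 and then at 50.9, 85.6, 78.1 and 66.9. Library 1 of untreated day 4 lay above every untreated day 5 library in both genes. Without it the differences were 0.78 for T (adjusted p = 0.852) and 0.76 for Mixl1 (adjusted p = 0.852).

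**Figure D4:**
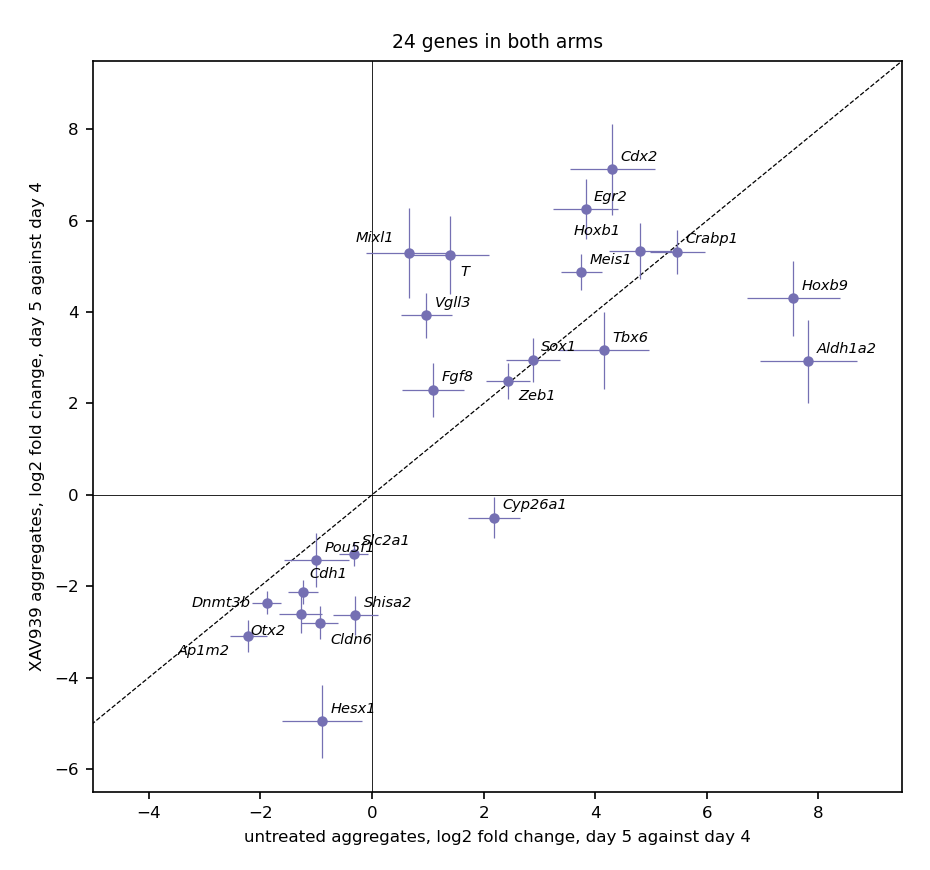
Log2 fold change from day 4 to day 5 of 24 named genes in untreated aggregates (horizontal axis) and in XAV939 aggregates (vertical axis), with bars of 1 standard error from edgeR and a dashed line of equal change. Cyp26a1, Aldh1a2 and Hoxb9 lie below the line on the right and Vgll3, T and Mixl1 above it. In edgeR no gene was called for a difference, and in DESeq2 Vgll3, Aldh1a2, Cyp26a1, Shisa2, Hesx1 and Cldn6 were. T and Mixl1 rest on 1 untreated library. The differences of Hesx1, Shisa2 and Cyp26a1 were smaller without XAV939 day 4 library 1.

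Over days 3, 4, 5, 6 and 7 of the XAV939 aggregates the mean of T was 0.816, 5.15, 196, 66.1 and 40.2 CPM and that of Mixl1 was 0.429, 0.782, 30.8, 0.816 and 0.0884 CPM. For Mixl1 no library of another day reached the lowest library of day 5. Egr2 and Olig3 also stood at 14.8 and 26.9 CPM at day 5 and at 1.5 and 5.95 CPM at day 6. Nkx1-2 fell from 218 CPM at day 5 to 2.56 at day 7. In contrast Hoxb9 stood at 3.78 CPM at day 5 and at 117 at day 6, Meis1 at 19.6 and then 71.3, Aldh1a2 at 2.07 and then 127, and Zeb1 at 34.0, 66.5 and 95.1 over days 5, 6 and 7. The loss of Cdh1 was spread over several days, with means of 1140, 690, 157 and 74.1 CPM at days 3, 4, 5 and 6. Dnmt3b was still at 2060 CPM at day 4 after 1840 at day 3. These other days are given as levels, with no test.

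**Figure D5:**
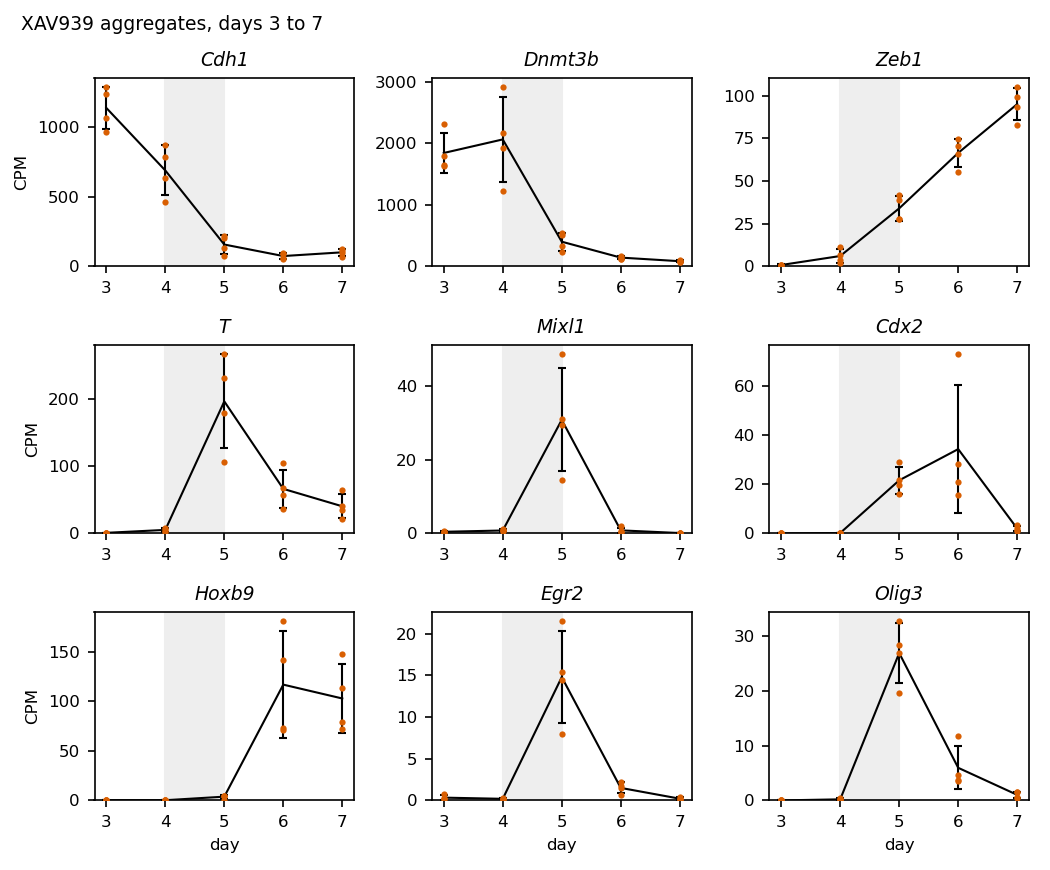
CPM of 9 genes in XAV939 aggregates at days 3 to 7, with orange points for the 4 libraries of each day, black lines through the means and bars of 1 SD. The grey band is the step from day 4 to day 5. T, Mixl1, Egr2 and Olig3 have their highest mean at day 5, Cdx2 and Hoxb9 at day 6 and Zeb1 at day 7.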

How the data were processed

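RNA was measured in 40 libraries, 4 for each of 10 groups (days 3 to 7, with XAV939 or untreated), of which 8 make up the step described. Per the labels' protocols, polyadenylated RNA was made into stranded TruSeq libraries and read in pairs. The authors deposited raw counts per gene, one row per Ensembl gene, and per the submitters' processing notes bcl2fastq 2.20.0 and the build mm10 were used. The aligner, counter and strand setting were not given in the sources used here. Symbols came with the deposited counts. Gene positions and types came from GENCODE M21 for 26857 identifiers, and 49 had no match there.

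From the counts, edgeR 4.0.16 in R 4.3.3 was fitted to all 40 libraries with a mean per group, TMM scaling, filterByExpr (minimum count 10, minimum total 15) and robust quasi-likelihood tests. Of 26906 genes 16878 were tested, with Benjamini-Hochberg adjustment over them. DESeq2 1.42.0 was an alternative, as were other scalings and filters, a block for library numbers, and fits that omitted 1 library at a time. In data simulated for this comparison on 16753 genes the test recovered 75% of 2-fold and 99% of 4-fold changes. Only 200 genes were changed there, all above 1 CPM at day 4, and the libraries were drawn independently. These rates therefore do not describe genes that were lower at day 4, or libraries that deviate together. Libraries of 1 number deviated together in the step, with correlations of 0.301, 0.119, 0.183 and 0.526, each the highest for its number. The main test had no term for the number. Pairing by number was used in the block, in the counts of direction within pairs and in fits without both libraries of a number. In the untreated step number 3 gave -0.0121, which was not its highest. The block was fitted there as well, so its untreated counts rest on an uncertain pairing. The pairing comes from the data, since the labels do not say what a number shares.

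The members and lists were chosen with earlier results of these data known. Genes were named by fixed rules: 12 genes each way by fold change (called, not overlapping, mean of 5 CPM or more on the higher day), the 6 largest gains and losses in CPM, up to 4 members of each list by adjusted p, a fixed panel, and genes at 0 in all libraries of a day. Cldn6, Grhl3, Esrp1, Cldn7, Zeb2, Snai1, Epha2, Sox21, Pou3f1, Zic1, Zic5, Pax5, En2, Tubb3, Wnt8a and Rarg were chosen after their values were seen. Promoters came from RefSeq (GRCm38.p6), and some genes, among them Cdh1, had no entry. Some genes that these rules name are not reported here.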

Additional observations from a re-analysis of the deposited data

Results flagged for a closer look

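In 21 of 318 groups of 4 libraries examined, over the 158 named genes and measures of library quality, 1 library stood so far from the nearest other that its gap took up more of the group's range than Dixon's 95% critical value allows. That is 6.6% of the groups, and chance gives about 1 in 20.

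At day 4 library 1 stood apart in 6 genes. Hesx1 was at 22.3 CPM there, with the others between 1.31 and 3.14, Shisa2 at 79.9 CPM, with the others between 12.7 and 19.9, and Cyp26a1 at 25.6 CPM, with the others between 6.62 and 7.94. Gm42418 was at 13000 CPM, Pcsk2 at 50.1 CPM and Phlda1 at 1.68 CPM, where the highest of the others had 461, 38.4 and 1.29. Library 4 of day 4 stood above the others in 3 genes, Nr2f2 at 1.38 CPM, Msx3 at 3.23 CPM and Fgf10 at 1.04 CPM. Noto in library 2 (0.0305 CPM) and Hoxb8 in library 3 (0.0288 CPM) were the only values above 0 of their day 4 groups.

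At day 5 library 3 stood apart in 7 genes. It was the lowest in Hoxb9 at 0.687 CPM, with the others between 4.74 and 4.91, in Pax7 at 7.79 CPM, in Fgf3 at 11.6 CPM, in Jag1 at 68.6 CPM, in Cdon at 78.8 CPM and in Boc at 24.5 CPM. In Pou3f1 it was the highest, at 12.1 CPM against 11.4 to 11.5. Library 2 stood above the others in Noto at 1.85 CPM and in Foxc1 at 3.09 CPM, and library 1 in Gm42418 at 350 CPM, where the highest of the others had 271.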

How the results depend on the processing

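Of 158 named genes 147 were called, and 140 of these kept call and direction in each of the 17 alternatives in which they could be tested. The call was lost in at least 1 alternative for 7, and none of the called genes changed sign. The log2 fold change of Eomes, which was not called, ranged from -0.55 (without day 5 library 3) to 0.12 (without day 5 library 4) and turned to 0.15 without both libraries numbered 4. That of Cyp26a1, also not called, ranged from -0.74 (without day 5 library 2) to 0.21 (without day 4 library 1) and turned to 0.33 without both libraries numbered 1. In the 8 libraries alone without a block 1961 genes rose and 1960 fell, of 14870 tested. With the library number as a block in the 8 libraries 3318 genes rose and 3496 fell, of 14870 tested, and the block changed no call of a named gene other than those given beside their values. Rises numbered between 1945 and 2856 and falls between 1894 and 2901 with single libraries left out, and 2725 and 2804 in DESeq2. A limit of at least 2-fold left 1269 rises and 1488 falls, and 1098 and 700 in untreated aggregates. Falls in untreated aggregates numbered 2084 with the replicate block and between 873 and 1726 with single libraries left out. Among list counts, at no filter the falls of the Nodal and p53 lists were 2 each, and with at least 5 CPM in 4 libraries 3 of 9 dorsoventral genes rose, 2 of 8 endothelial genes fell and 1 of 5 lateral mesoderm genes fell. In the 8 libraries alone without a block 2 of 17 cadherins fell. The limit of 2-fold left 1 rise in the stress response list and 1 fall each in the p53, Notch, imprinted and Lin28 lists. Other counts of 1 or 2 members moved too. The difference between the steps gave 5 genes up and 29 down in DESeq2, 1 down with the replicate block, and between 0 and 36 down with single libraries left out, the 36 without untreated day 5 library 4. Apart from sample number and the smaller set of genes tested under a stricter limit, the cause was not tested. The leave-both-out alternatives were chosen after seeing the data. With 4 libraries a day, a permutation test of a single value cannot go below an exact p of 0.0286.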
